A study of Mus musculus with 24 samples.

Results

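The 47 genes described here encode collagens, laminins, matrix metalloproteinases (Mmp) and tissue inhibitors of metalloproteinases (Timp). They were chosen by name from the 9834 genes to which the array's annotation gave a single symbol: Col, Lama, Lamb, Lamc, Mmp or Timp followed by the numbers of the chain or enzyme. They comprised 27 collagen genes (10 fibrillar, 2 of type IV, 3 of type VI and 12 others), 6 laminin genes, 10 Mmp genes and 4 Timp genes, measured by 77 probes. Probes of a gene were averaged on each array, and 20 of the genes had more than 1 probe.

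RNA of Nur77-/- mice, pooled from 7 animals per the series' design text, was hybridised against RNA of a pool of wild-type (Nur77+/+) mice in lung, spleen, testis, skeletal muscle, heart and brown adipose tissue. Wild-type pool size is given as 7 animals in the design text and as 6 in the labelling protocol. Strain, age, sex and treatment are not given in the labels. Each organ had 4 two-colour arrays, with the Nur77-/- pool in Cy5 on replicates 1 and 2 and in Cy3 on replicates 3 and 4, so 24 arrays in all. On replicate 2 of heart, the label of the wild-type channel names skeletal muscle. Between 13396 and 19455 probes had a value on an array. All values are log2 ratios of Nur77-/- over wild type, so 1 unit is a change of 2-fold. The direction is not stated in the files and is the likely one; with the sign of the Cy3 arrays turned, fewer rows passed the test in spleen (0 against 31) and skeletal muscle (4 against 196), and more in heart (95 against 19) and brown adipose tissue (48 against 6). The 4 arrays of an organ repeat 1 comparison of pools, so the p-values below measure hybridisation error and not the spread between mice. Those of the test over the 6 organ means measure the spread between organs, and likewise not that between mice. Fitted ratios are given with their standard error (SE). Since the files hold ratios and no levels, an organ label shared by both channels could not be checked against marker genes. On heart replicate 2 the ratios had a scaled median absolute deviation of 0.62, against 0.57, 0.54 and 0.43 on heart replicates 1, 3 and 4. Over all rows its Spearman rho with heart replicate 1 was 0.13. Its wild-type label was not tested further.

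Collagens are triple helices of 3 chains: fibrillar types form the tensile fibres of connective tissue, type IV forms the sheet of basement membranes, and type VI forms beaded filaments at the cell surface. Laminins are cross-shaped trimers of an alpha, a beta and a gamma chain that cells bind through integrins. Mmp enzymes are zinc proteases that cut these proteins, and Timp proteins bind the active site of the enzymes and block it. Nur77, encoded by Nr4a1, is an orphan nuclear receptor that can bind DNA as a monomer at the NGFI-B response element (NBRE).

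Nr4a1, the targeted gene, was below 0 on 21 of the 22 arrays that measured it. These were 11 of 11 arrays with Nur77-/- in Cy5 and 10 of 11 with Nur77-/- in Cy3. Since the direction was taken in part from Nr4a1, the sign of its ratios is no separate check of that direction or of the knockout. Its fitted ratio passed the test in skeletal muscle (-1.78 ± 0.35, SE, limma adjusted p = 0.0119) and in brown adipose tissue (-1.15 ± 0.14, limma adjusted p = 0.00239). In heart it was -0.69 ± 0.15 (limma adjusted p = 0.0959), and in spleen, lung and testis it was -0.78, -0.39 and -0.16. The skeletal muscle call held in 8 of 14 alternative fits and the brown adipose tissue call in 9 of 16. In brown adipose tissue it was lost on leaving out any of the 4 replicates (limma adjusted p from 0.0950 to 0.605) and without array weights (limma adjusted p = 0.99987), while the ratio stayed between -2.04 and -1.07.

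The promoters of 33 of the 47 genes (36 windows of 300 bases, from 250 before to 50 after the gene start) were found in the RefSeq table for GRCm38.p6. The NBRE letters AAAGGTCA, searched on both strands, stood in the window of 1 member, Col23a1 (2.78% of member windows), and in 1.51% of all 32851 windows. Col23a1, a transmembrane collagen, is shown for that reason, on the plus strand at chr11:51289670-51289969 with the NBRE letters in capitals. Motifs other than the NBRE were chosen after the data were seen.
Col23a1: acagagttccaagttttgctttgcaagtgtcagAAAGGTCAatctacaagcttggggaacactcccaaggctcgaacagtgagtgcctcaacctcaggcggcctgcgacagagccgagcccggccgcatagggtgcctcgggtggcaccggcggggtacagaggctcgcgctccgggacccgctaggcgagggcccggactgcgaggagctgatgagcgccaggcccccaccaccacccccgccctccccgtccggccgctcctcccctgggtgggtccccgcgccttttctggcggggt
Col23a1 passed the test in no organ. Its fitted ratio was 0.66 ± 0.40 in heart, where replicates 1 to 4 had 0.47, 1.91, 0.46 and 0.13, and -0.45 ± 0.38 in brown adipose tissue. It was above 0 on all 4 heart arrays and had both signs in each of the other 5 organs. The heart value of 1.91 is on the array with the skeletal muscle label, without which the ratio was 0.46 ± 0.45. Its 2 probes averaged 0.20 and 1.56 in heart.

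Mmp3 (stromelysin-1) and Mmp13 (collagenase-3), neighbours in a cluster of Mmp genes, are shown because theirs were the 2 Mmp windows that held both the AP-1 letters (TGAGTCA or its reverse complement TGACTCA) and TATAAA, and Mmp13 was chosen after its values were seen. AP-1 letters stood in the windows of 3 members (the other was Col6a1), 8.33% of member windows, and in 5.20% of all windows. TATAAA, also searched on both strands, stood in the windows of 6 members, 16.7% of member windows, and in 13.6% of all windows. Both windows are on the plus strand, Mmp3 at chr9:7445572-7445871 and Mmp13 at chr9:7272264-7272563, with the AP-1 and TATAAA letters in capitals.
Mmp3: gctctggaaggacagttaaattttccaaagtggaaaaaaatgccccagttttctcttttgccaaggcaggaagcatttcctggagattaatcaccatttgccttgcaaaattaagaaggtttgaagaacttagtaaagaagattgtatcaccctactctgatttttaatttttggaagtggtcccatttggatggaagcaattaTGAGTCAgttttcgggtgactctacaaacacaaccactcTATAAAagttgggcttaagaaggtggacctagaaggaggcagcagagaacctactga
Mmp13: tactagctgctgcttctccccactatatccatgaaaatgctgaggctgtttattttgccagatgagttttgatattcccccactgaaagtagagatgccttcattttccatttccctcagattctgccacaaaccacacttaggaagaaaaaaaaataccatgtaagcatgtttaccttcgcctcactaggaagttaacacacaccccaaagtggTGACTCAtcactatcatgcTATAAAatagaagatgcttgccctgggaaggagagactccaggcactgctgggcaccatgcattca
The fitted ratio of Mmp3 was furthest from 0 in lung (-1.83 ± 0.50), as was that of Mmp13 (-0.63 ± 0.36), whose values on single lung arrays had both signs.

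Timp3, whose ratios had the smallest p-value between organs, lies within the gene Syn3, as Timp1 lies within Syn1 and Timp4 within Syn2. Its window, on the plus strand at chr10:86300162-86300461, held 2 copies of the GC box (GGGCGG or its reverse complement CCGCCC), shown in capitals. The GC box stood in the windows of 24 of the 33 members found, 69.4% of member windows, and in 35.7% of all windows. This difference was not tested.
Timp3: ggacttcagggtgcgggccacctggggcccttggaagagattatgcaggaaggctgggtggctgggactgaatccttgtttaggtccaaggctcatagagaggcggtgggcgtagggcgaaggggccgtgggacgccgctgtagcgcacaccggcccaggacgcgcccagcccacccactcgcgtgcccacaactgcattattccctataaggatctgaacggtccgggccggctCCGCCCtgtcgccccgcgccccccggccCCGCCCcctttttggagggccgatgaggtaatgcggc
Col4a1 and Col4a2, the chains of the most widespread type IV collagen, lie head to head, and their windows share 78 bases read in opposite directions. The Col4a2 window at chr8:11312555-11312854, on the plus strand, is shown with the shared stretch in capitals.
Col4a2: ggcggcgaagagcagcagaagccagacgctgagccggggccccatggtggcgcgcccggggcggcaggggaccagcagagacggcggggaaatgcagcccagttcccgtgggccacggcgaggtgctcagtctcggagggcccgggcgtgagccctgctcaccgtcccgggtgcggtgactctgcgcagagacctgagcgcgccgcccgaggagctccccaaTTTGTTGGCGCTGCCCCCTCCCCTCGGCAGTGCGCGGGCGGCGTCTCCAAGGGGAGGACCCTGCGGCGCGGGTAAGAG
For this pair no organ had a ratio past the test for either gene. In spleen Col4a1 was -0.99 ± 0.42 on replicates 2 to 4 (-0.69, -0.82 and -1.63) and Col4a2 was 1.11 ± 1.11 on 4 arrays (3.47, 0.47, -0.79 and -0.34). All 3 Col4a1 values were below 0, while Col4a2 had both signs.

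No member passed the test in any organ at an adjusted p of 0.05 (limma with array weights and a dye term, Benjamini-Hochberg over all rows tested in the organ). Among all rows 0.105% passed in lung, 0.276% in spleen, 0.0442% in testis, 1.64% in skeletal muscle, 0.137% in heart and 0.0394% in brown adipose tissue, so a count of 0 among about 40 members says nothing particular about them. The members tested numbered 41 in lung, 42 in spleen, 42 in testis, 38 in skeletal muscle, 40 in heart and 45 in brown adipose tissue. Those not tested lacked values on more than 1 array or for 1 dye orientation.

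At an unadjusted p under 0.05 the count was 3 members in lung (6.53% of all rows), 3 in spleen (6.94%), 7 in testis (6.44%), 6 in skeletal muscle (11.8%), 6 in heart (7.61%) and 1 in brown adipose tissue (4.87%). The member shares in testis, skeletal muscle and heart, 16.7%, 15.8% and 15.0%, stood above those of all rows, and this difference was not tested. Without array weights the counts were 2 in testis (4.76% of members, 3.63% of all rows) and 2 in heart (5.0% and 2.05%), and in skeletal muscle the member share of 15.8% was below the 20.2% of all rows. With a dye term per organ skeletal muscle had 1 member (2.63%, against 8.97% of all rows), and with the Cy3 sign turned it had 3 (7.89%, against 10.5%). With each organ fitted alone the count was 1 in testis (2.38% of members, 5.15% of all rows). In that fit it was 2 in skeletal muscle (5.26% and 8.0%) and 3 in heart (7.5% and 6.68%). Leaving out single replicates moved these counts in either direction. In testis the count was 2 without replicate 4 (4.88% of members, 4.7% of all rows) and 4 without replicate 3 (9.52% and 4.51%). It was 7 without replicate 1 (17.5% and 6.68%) and 7 without replicate 2 (18.9% and 6.93%). Heart had 5 without replicate 1 (12.8% and 7.58%) and 7 without replicate 2 (16.7% and 7.97%). It had 7 without replicate 3 (16.3% and 7.3%) and 4 without replicate 4 (9.76% and 5.97%). Spleen had 0 of 41 members without replicate 4, against 766 of all 11418 rows. Skeletal muscle had 1 without replicate 1 (2.56% and 7.08%), 2 without replicate 2 (5.0% and 8.06%) and 3 without replicate 3 (8.11% and 12.4%). Without replicate 4 it had 5 (12.2% and 13.4%). Brown adipose tissue had 2 of 39 without replicate 2 (804 of 13558 rows) and 3 of 44 without replicate 3 (696 of 14998 rows).

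Precision differed between organs. The median member had a 95% confidence interval reaching 0.60 to each side of its ratio in heart and in brown adipose tissue, 0.76 in testis, 1.07 in lung, 1.42 in skeletal muscle and 1.48 in spleen. The whole interval lay within 1 log2 unit of 0 for 32 of 45 members in brown adipose tissue and 28 of 40 in heart, against 5 of 42 in spleen and 2 of 38 in skeletal muscle. A 2-fold change thus lay outside the interval for most members in brown adipose tissue and heart, and inside it for most in spleen and skeletal muscle. Narrow intervals did not go with agreement between dye orientations over all rows. Arrays of opposite orientation had a Spearman rho from -0.15 to -0.04 in heart and from -0.23 to -0.03 in brown adipose tissue. For arrays of the same orientation it was 0.13 and 0.21 in heart and 0.18 and 0.12 in brown adipose tissue.

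**Figure D1:**
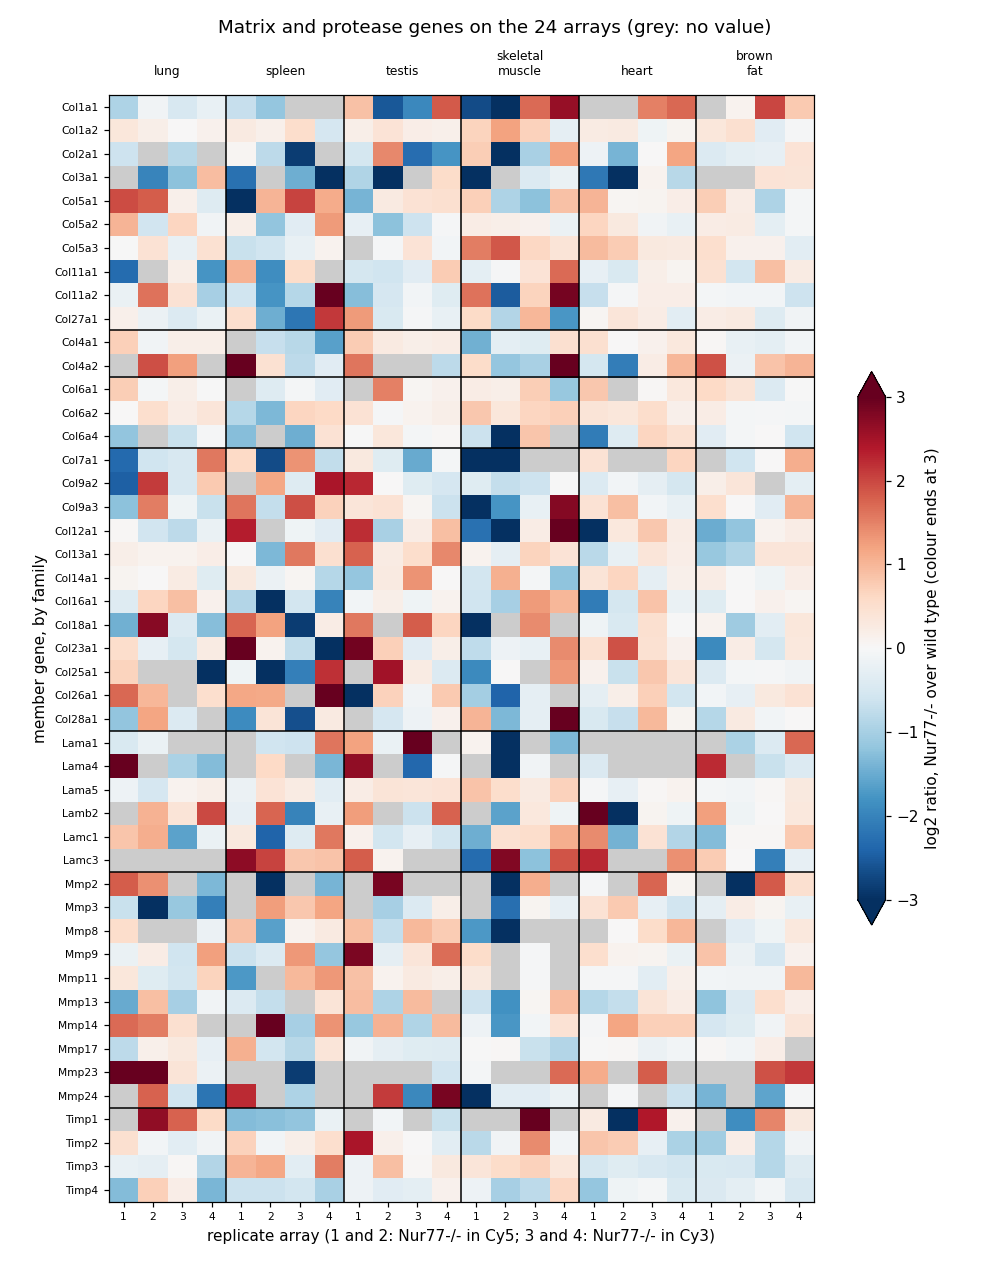
Log2 ratio of Nur77-/- over wild type for the 47 members (rows, ordered by family and divided by lines) on the 24 arrays (columns, 4 per organ), red above 0, blue below 0 and grey without a value. Spleen and skeletal muscle columns are the most strongly coloured, and no row has 1 colour throughout the arrays of an organ together with an adjusted p under 0.05.

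The median over all members was within 0.1 of the median of all rows in 5 organs and higher in testis. That median member ratio was 0.03 in lung, -0.06 in spleen, 0.20 in testis, -0.31 in skeletal muscle, -0.03 in heart and -0.05 in brown adipose tissue, and the median of all rows was -0.03, -0.07, -0.01, -0.24, -0.01 and -0.07 in the same organs. Collagens were above 0 in 14 of 25 cases in heart and in 14 of 26 in brown adipose tissue, where 51.3% and 61.6% of all rows were below 0. In spleen they were below 0 in 16 of 26, as were 54.9% of all rows. All 5 Mmp genes tested in skeletal muscle were below 0, where 62.7% of all rows were, with a median of -0.39 and a range of -2.07 to -0.31. With arrays centred on their medians, Mmp14 and Mmp17 were -0.11 and -0.05 there, and Mmp3 and Mmp24 were -0.52 and -1.77. The families differed more from all rows: the Mmp median in testis was 0.31, and laminin medians were 0.59 in lung and 0.46 in testis, over 4 and 5 genes. The fitted ratios of the 4 Timp genes were below 0 in heart (median -0.26), where 51.3% of all rows were, and in brown adipose tissue (median -0.44), where 61.6% were. Timp1 was below 0 in heart only through replicate 2, the array with the skeletal muscle label: its values were 0.27, -3.61, 2.39 and 0.12, and without that array the ratio was 0.58 ± 0.53. In brown adipose tissue Timp1 was above 0 on 2 of 3 arrays (-1.87, 1.46 and 0.28).

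**Figure D2:**
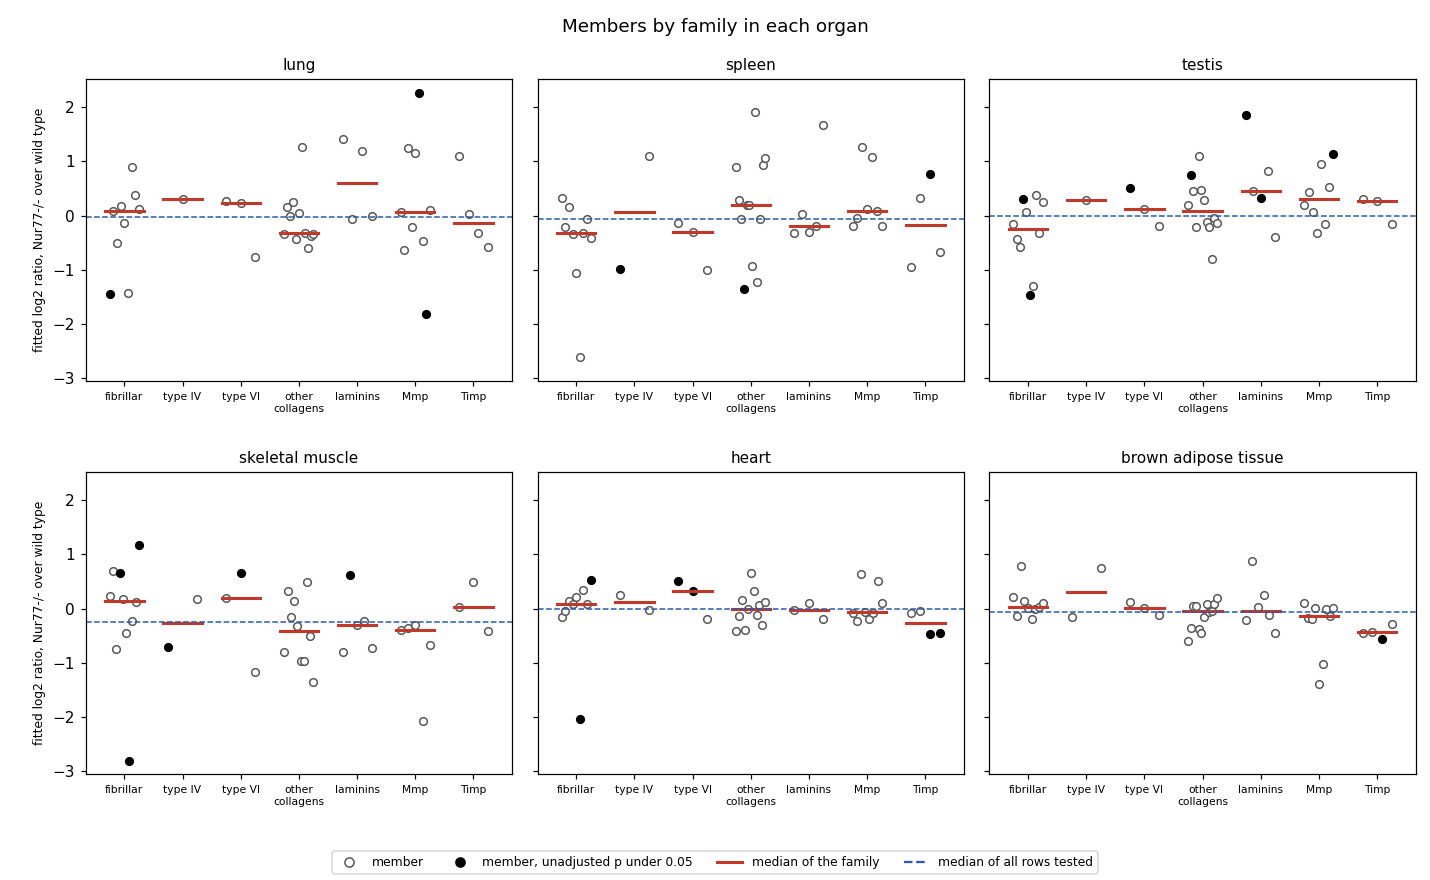
Fitted log2 ratio (Nur77-/- over wild type) of each tested member by family in each organ; filled points have an unadjusted p under 0.05, red bars are family medians and the dashed line is the median of all rows tested. The 4 Timp points lie below 0 in heart and in brown adipose tissue, that of Timp1 in heart (-0.07) through replicate 2 alone, and points spread more widely in spleen and lung than in heart.

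Timp3 encodes an inhibitor that binds to the matrix and also blocks ADAM proteases. In heart replicates 1 to 4 had -0.53, -0.35, -0.47 and -0.55, and in brown adipose tissue they had -0.47, -0.48, -0.85 and -0.38. In skeletal muscle the 4 values were 0.36, 0.55, 0.70 and 0.34, and in spleen they were 1.01, 1.15, -0.33 and 1.52. The 8 arrays of heart and brown adipose tissue were thus all below 0, and the 4 of skeletal muscle were all above it. How many of all rows had such a pattern was not counted. Timp3 also had the smallest p-value between organs among the members, so the pattern adds nothing to that test.

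Fitted ratios of Timp3 were -0.47 ± 0.14 in heart, -0.56 ± 0.13 in brown adipose tissue (1.47-fold lower in Nur77-/-), 0.48 ± 0.31 in skeletal muscle, 0.77 ± 0.33 in spleen, 0.27 ± 0.17 in testis and -0.32 ± 0.24 in lung. Neither heart nor brown adipose tissue passed the test (limma adjusted p = 0.266 in both). The limma F test of a difference between the 6 organs gave F = 5.89 and an adjusted p of 0.0770, the smallest among the 30 members tested between organs. No member passed that test, against 1.59% of all rows. An unadjusted p under 0.05 was found for 5 members, against 11.4% of all rows.

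Timp3 was measured by 4 probes, which did not agree in skeletal muscle: their means there were 2.08, 1.20, -0.47 and -0.87. In heart the same 4 probes averaged -0.47, -0.62, 0.11 and -0.93, and in brown adipose tissue they averaged -0.40, -0.79, -0.10 and -1.02. With the 1 probe that had most values in place of the average, the skeletal muscle ratio was 2.11 ± 0.22 (limma adjusted p = 1.26e-05) and the difference between organs passed as well (limma adjusted p = 4.05e-07). With that choice of probe 2.82% of all rows passed in skeletal muscle and 3.74% between organs. In skeletal muscle 2 of the 4 probes thus averaged above 0, while 3 of the 4 averaged below 0 in heart and all 4 in brown adipose tissue. Centring the arrays on their medians also brought the difference between organs past the test (limma adjusted p = 0.0451), where 1.97% of all rows passed. For Timp3 4 of 16 fits passed in all.

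Timp4, the inhibitor best known from heart, was below 0 on 20 of the 24 arrays. In heart it had -1.15, -0.13, -0.07 and -0.46, and in brown adipose tissue -0.42, -0.29, -0.08 and -0.48. In spleen the values were -0.65, -0.64, -0.55 and -0.97. These 12 values were all below 0, and the 4 positive ones came from lung (0.71 and 0.21), skeletal muscle (0.61) and testis (0.13). The probes of Timp4 were unequal in brown adipose tissue: 2 averaged -0.80 and -0.06, and the other, with values on 2 arrays, averaged 0.17.

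The fitted ratio of Timp4 was below 0 in all 6 organs, from -0.67 ± 0.45 in spleen to -0.16 ± 0.23 in testis, with -0.45 ± 0.19 in heart (limma adjusted p = 0.529), where its 3 probes averaged -0.91, -0.75 and 0.18. Over the 6 organ means it was -0.40 ± 0.12 with an unadjusted p of 0.00868 and a limma adjusted p of 0.702. In that test over organs no member passed, nor did any row (0%). An unadjusted p under 0.05 was found there for 2 of 30 members, Timp4 and the type VI chain Col6a4 (-0.58 ± 0.19), and for 5.71% of all rows.

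Timp1, a broadly induced inhibitor, was measured on 17 arrays and ranged from -3.61 to 3.36. In spleen its 4 values were -1.29, -1.26, -1.19 and -0.20, all below 0, with a fitted ratio of -0.95 ± 1.32. Timp2, which together with Mmp14 takes part in the activation of Mmp2, had ratios from -0.43 ± 0.25 in brown adipose tissue to 0.33 ± 0.63 in spleen. In the heart, where its fitted ratio was -0.05 ± 0.27, Timp2 was 0.84 and 0.77 on the Cy5 arrays and -0.25 and -0.94 on the Cy3 arrays, so its sign followed the dye.

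**Figure D3:**
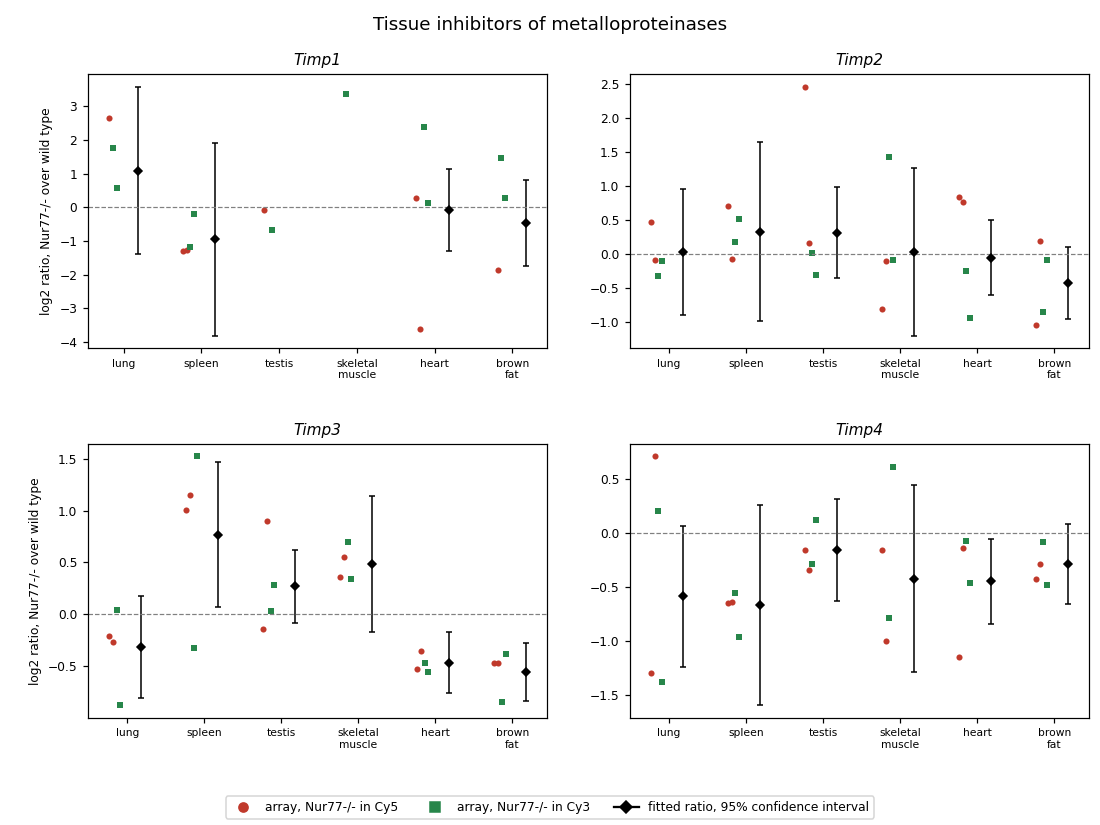
Log2 ratio (Nur77-/- over wild type) of the 4 Timp genes by organ: red circles are arrays with Nur77-/- in Cy5, green squares arrays with Nur77-/- in Cy3, and black diamonds the fitted ratio with its 95% confidence interval. Timp3 lies below 0 on the 8 arrays of heart and brown adipose tissue and above 0 on the 4 of skeletal muscle, where its probes did not agree.

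Among the fibrillar collagens, Col5a3, a minor chain of type V collagen, had the smallest adjusted p within an organ. Its values in skeletal muscle were 1.53, 1.86, 0.62 and 0.39, and in heart 0.96, 0.77, 0.28 and 0.28. All 8 were above 0, and in both organs the Cy5 arrays were higher than the Cy3 arrays. The fitted ratio was 1.17 ± 0.33 in skeletal muscle (2.24-fold higher in Nur77-/-, 95% confidence interval of the log2 ratio 0.48 to 1.86, limma adjusted p = 0.0923) and 0.53 ± 0.15 in heart (limma adjusted p = 0.216). In spleen Col5a3 was -0.42 ± 0.35, and in lung, testis and brown adipose tissue it lay between 0.09 and 0.25.

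With 1 common spread for all arrays, Col5a3 passed the test in skeletal muscle (1.10 ± 0.26, limma adjusted p = 0.0162), where 5.59% of all rows then passed. Array medians in skeletal muscle were -0.44, -0.78, -0.01 and 0.67, and after each array was centred on its median the ratio was 1.42 ± 0.39 (limma adjusted p = 0.0673). Of 13 skeletal muscle genes in the same organ 9 were above 0, with a median ratio of 0.45 and Neb, which encodes the giant filament protein nebulin, past the test at 1.95 ± 0.45 (in 10 of 16 alternative fits). Cidea, a lipid droplet protein gene of brown fat, also passed at 1.87 ± 0.46 (in 4 of 14). Among the fits that left out 1 replicate, Neb passed in 0 of 4 and Cidea in 0 of 3. Their part in the collagen ratios was not tested. In such bulk RNA, fewer cells of a type and less RNA per cell cannot be told apart.

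Type I collagen gave unequal results for its chains. Col1a2, the alpha 2 chain, was measured by 4 probes on all 24 arrays and was above 0 on 19. Its skeletal muscle values were 0.67, 1.22, 0.70 and -0.26, with a fitted ratio of 0.66 ± 0.27 (limma adjusted p = 0.316). The testis values of Col1a2 were 0.17, 0.42, 0.20 and 0.15, all above 0, with a ratio of 0.31 ± 0.15. Col1a1, the alpha 1 chain, was measured on 19 arrays by 2 probes and had both signs in testis (0.87, -2.54, -1.94 and 1.83) and in skeletal muscle (-2.69, -3.11, 1.71 and 2.62), where its sign again followed the dye. Its 4 lung values, -0.93, -0.09, -0.48 and -0.21, were all below 0, with a ratio of -0.50 ± 0.83.

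Col3a1, the single chain of type III collagen, had the lowest fitted ratio of the collagens in spleen, skeletal muscle and heart, and its values scattered widely. In heart its values were -2.15, -5.55, 0.11 and -0.82. In skeletal muscle they were -5.29, -0.40 and -0.21 on replicates 1, 3 and 4, and in spleen -2.24, -1.47 and -4.48 on the same replicates. The fitted ratio was -2.04 ± 0.49 in heart (limma adjusted p = 0.179), -2.81 ± 1.20 in skeletal muscle and -2.62 ± 1.30 in spleen, and it was below 0 in all 5 organs where it was tested.

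In brown adipose tissue, where Col3a1 was not tested, the 2 Cy3 arrays had 0.41 and 0.40. Without heart replicate 2, the array with the skeletal muscle label, the heart ratio of Col3a1 was -1.52 ± 0.52 (limma adjusted p = 0.394). Leaving out that array gave 0.51 ± 0.17 for Col5a3 and -0.47 ± 0.16 for Timp3, both close to the values above.

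Col2a1, the cartilage fibril chain, had -0.52, 1.44, -2.28 and -1.77 in testis, where its 2 probes averaged -2.62 and 0.22. The fitted ratio was -1.47 ± 0.49 (limma adjusted p = 0.468). Col5a2, the alpha 2 chain of type V collagen, was below 0 on the 4 testis arrays (-0.25, -1.22, -0.61 and -0.03), as was Col11a2 (-1.27, -0.50, -0.09 and -0.36), a chain of the cartilage collagen of type XI. Col27a1 had ratios between -0.34 and 0.18, and its 2 probes averaged -1.50 and 0.98 in skeletal muscle. Col11a1, chosen after its values were seen, had -1.45 ± 0.44 in lung on 3 arrays (-2.31, 0.19 and -1.76).

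Type VI collagen chains Col6a1 and Col6a2 were measured by 1 and 2 probes. Col6a2 was above 0 on all 4 skeletal muscle arrays (0.81, 0.34, 0.64 and 0.72) and on all 4 heart arrays (0.39, 0.33, 0.54 and 0.16). Its fitted ratio was 0.66 ± 0.31 in skeletal muscle (limma adjusted p = 0.395) and 0.33 ± 0.14 in heart (limma adjusted p = 0.546). Col6a1 had 0.80, 0.04 and 0.32 on the 3 heart arrays that measured it, with a ratio of 0.51 ± 0.17 (limma adjusted p = 0.394). In testis Col6a1 had 1.51, 0.07 and 0.13, with a ratio of 0.52 ± 0.20.

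Within brown adipose tissue both chains were near 0, at 0.13 ± 0.15 for Col6a1 and 0.01 ± 0.13 for Col6a2. The third chain measured, Col6a4, had fitted ratios below 0 in all 6 organs, from -1.17 ± 0.86 in skeletal muscle to -0.12 ± 0.35 in brown adipose tissue. Its skeletal muscle values were -0.66, -6.19 and 0.84, and its testis values, -0.02, 0.35, -0.06 and 0.03, had a plain mean of 0.08 against a fitted ratio of -0.19.

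Type IV collagen was represented by Col4a1, with 4 probes, and Col4a2, with 1. Col4a1 was above 0 on all 4 heart arrays (0.48, 0.01, 0.14 and 0.31) and all 4 testis arrays (0.76, 0.26, 0.17 and 0.23). Skeletal muscle had -1.45, -0.28, -0.36 and 0.47. Fitted ratios of Col4a1 were 0.25 ± 0.14 in heart, 0.28 ± 0.17 in testis, -0.71 ± 0.32 in skeletal muscle and -0.16 ± 0.13 in brown adipose tissue. With the values of size above 12 kept, the skeletal muscle ratio was above 0, at 0.94. In testis 1 of its probes averaged 2.70 and the other 3 lay between -0.38 and -0.13, so the sign of the average there came from that probe.

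The remaining collagens are mostly membrane-spanning or fibril-associated. Col13a1, a transmembrane collagen of adhesive junctions, had 1.77, 0.24, 0.52 and 1.43 in testis, all above 0, with a ratio of 0.75 ± 0.23 (limma adjusted p = 0.393). In brown adipose tissue it had -1.14 and -0.91 on the Cy5 arrays and 0.37 and 0.36 on the Cy3 arrays. Col16a1, a fibril-associated collagen, was below 0 on all 4 spleen arrays (between -2.98 and -0.55), with a ratio of -1.37 ± 0.60 (limma adjusted p = 0.657). With 1 common spread for all arrays it passed the test there (-1.60 ± 0.38, limma adjusted p = 0.0390), as did 1.53% of all rows.

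The spleen ratios stand beside a large difference in pancreas genes. Of the 12 exocrine pancreas genes measured in spleen, 11 were below 0 and 9 passed the test, with a median of -4.12 and medians on single arrays between -5.08 and -4.35. Their part in the spleen ratios of the members was not tested. Fibroblast markers were not called in any organ, and their median ratio was -0.05 in spleen.

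Col26a1 was above 0 on the 3 spleen arrays that measured it (1.15, 1.13 and 3.83) and on 3 lung arrays (between 0.51 and 1.73), with ratios of 1.92 ± 0.92 and 1.26 ± 0.65. Its 3 skeletal muscle values were all below 0 (-1.02, -2.41 and -0.27). Col18a1, the source of the fragment endostatin, had 1.58, 1.81 and 0.63 on the 3 testis arrays that measured it, with a ratio of 1.11 ± 0.57 (its 2 probes averaged 2.09 and 0.09). Col9a2, a chain of a cartilage collagen, was below 0 on the 4 heart arrays (-0.42, -0.09, -0.27 and -0.54), with a ratio of -0.31 ± 0.32. The collagens not named so far, Col5a1, Col7a1, Col9a3, Col12a1, Col14a1, Col25a1 and Col28a1, had fitted ratios from -1.36 ± 0.68 to 1.06 ± 0.73, both of Col9a3, in skeletal muscle and spleen.

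**Figure D4:**
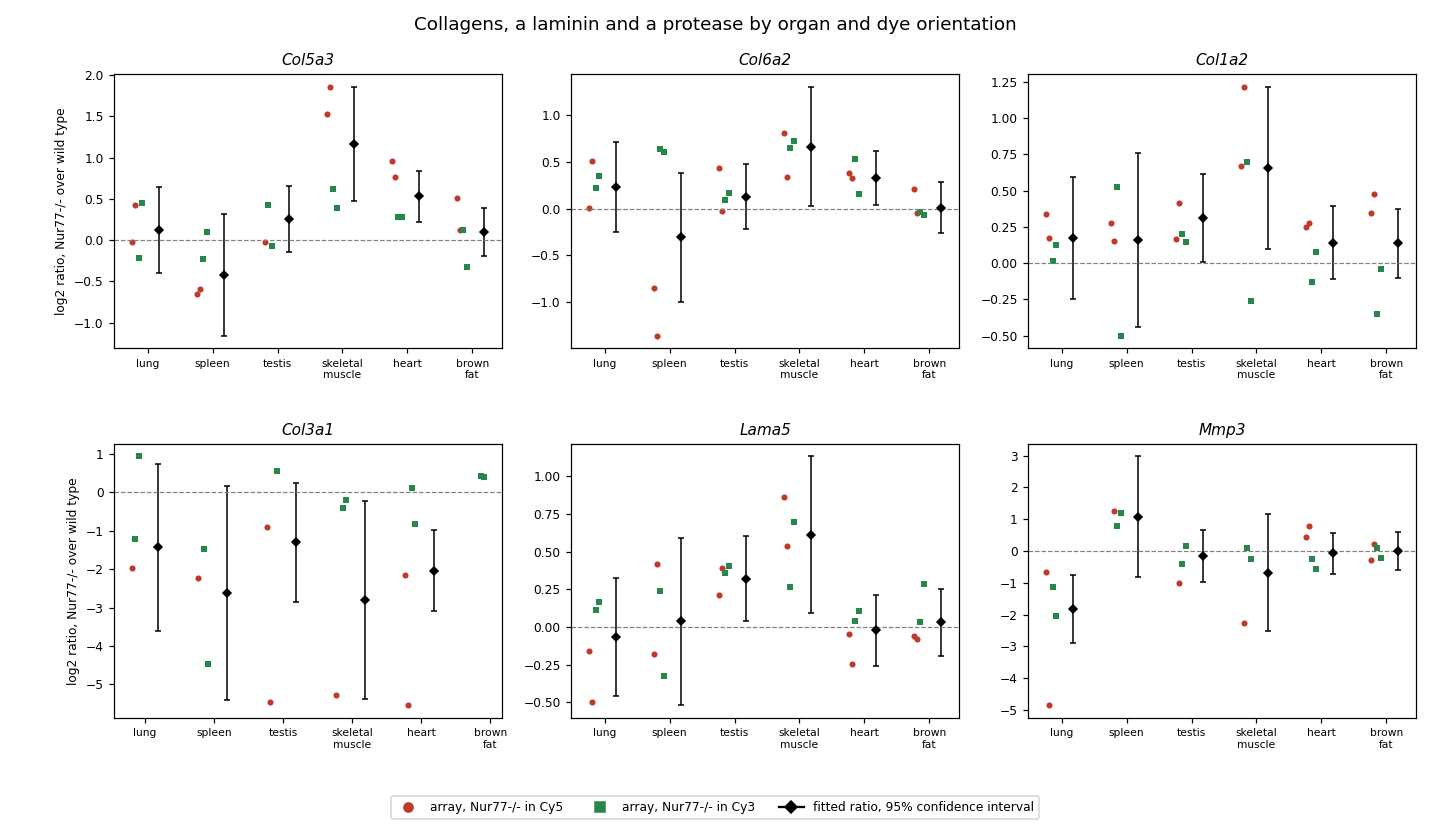
Log2 ratio (Nur77-/- over wild type) by organ of 4 collagens, the laminin Lama5 and the protease Mmp3; red circles are arrays with Nur77-/- in Cy5, green squares arrays with Nur77-/- in Cy3, and diamonds the fitted ratio with its 95% confidence interval. Col5a3 and Col6a2 are above 0 on the 8 arrays of skeletal muscle and heart, and Col3a1 spans from -5.55 to 0.11 within heart.

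Of the 6 laminin genes, 3 (heart) to 6 (brown adipose tissue) were tested in an organ. Lama5, an alpha chain of mature basement membranes, was measured on all 24 arrays. It was above 0 on the 4 skeletal muscle arrays (0.86, 0.54, 0.26 and 0.69) and the 4 testis arrays (0.21, 0.39, 0.36 and 0.40). The ratio was 0.61 ± 0.25 in skeletal muscle (limma adjusted p = 0.316) and 0.32 ± 0.14 in testis (limma adjusted p = 0.678), and in heart and brown adipose tissue it was -0.02 ± 0.11 and 0.03 ± 0.11.

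Lamc3, a gamma chain, was above 0 on the 4 spleen arrays (2.68, 2.03, 0.82 and 0.85), with a ratio of 1.67 ± 0.88. Lamc1, the widespread gamma chain, had ratios between -0.40 ± 0.44 in testis and -0.01 ± 0.62 in lung, all below 0 and smaller than their errors. Lamb2, the beta chain enriched at the neuromuscular junction, had 4.10, -4.30, 0.07 and -0.13 in heart, so its Cy5 arrays had opposite signs. The value of -4.30 is on replicate 2, the array with the skeletal muscle label. Lama4, an alpha chain of vessel walls, was measured on 14 arrays, from -5.07 in skeletal muscle to 4.52 in lung. Lama1, the alpha chain of early basement membranes and chosen after its values were seen, had 1.21, -0.20 and 3.04 in testis (1.86 ± 0.60, limma adjusted p = 0.490).

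Mmp3, a broad-range protease that also activates other Mmp enzymes, was below 0 on the 4 lung arrays (-0.66, -4.85, -1.14 and -2.04). The fitted ratio was -1.83 ± 0.50 (limma adjusted p = 0.281), and leaving out single replicates moved it between -2.35 and -1.18. In spleen Mmp3 was above 0 on the 3 arrays that measured it (1.26, 0.80 and 1.19), with a ratio of 1.08 ± 0.90. In testis, skeletal muscle and heart the ratios lay between -0.68 and -0.08, and in brown adipose tissue the 4 arrays lay between -0.27 and 0.23. In lung 12 skeletal muscle genes were measured, 9 of them below 0 with a median of -1.29 and 5 past the test. The heart muscle gene Myl2 passed in the other direction (1.61 ± 0.26), and the exocrine pancreas gene Ctrl passed at -2.01 ± 0.38. With 1 replicate left out at a time, Ctrl and the skeletal muscle genes Myoz1 and Tnnc2 each passed in 1 of 4 fits. Myl2 and the skeletal muscle genes Ckm, Myh1 and Tnni2 passed in 0 of 4. The part of these genes in the lung ratios was not tested.

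Mmp9, the gelatinase of neutrophils and macrophages, had 2.82, -0.26, 0.37 and 1.68 in testis and a ratio of 1.13 ± 0.34 (limma adjusted p = 0.369). Its 2 probes averaged 2.94 and 0.17 there, so the value rested on 1 of them. Mmp14, a membrane-anchored collagenase, was above 0 on the 3 lung arrays that measured it (1.71, 1.53 and 0.49; ratio 1.26 ± 0.62) and was 0.64 ± 0.32 in heart. The lung values came from 1 of its 2 probes, and in heart the probes averaged 1.49 and -0.20. On heart replicate 2, the array with the skeletal muscle label, these probes had 3.45 and -1.07. Mmp2, the gelatinase of connective tissue, was measured on 14 arrays, and its brown adipose tissue values of -4.07, 1.85 and 0.48 had both signs.

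Mmp17, an enzyme held by a lipid anchor, had -0.10, -0.28, -0.36 and -0.38 in testis (ratio -0.32 ± 0.18). Its fitted ratios in the other 5 organs lay between -0.31 and 0.12, over array values from -0.88 to 1.06. Mmp24, a membrane-type enzyme, was below 0 on the 4 skeletal muscle arrays, where replicate 1 had -4.60 and the other 3 lay between -0.35 and -0.20. In brown adipose tissue it had -1.40, -1.58 and -0.04 on 3 arrays. Mmp23, chosen after its values were seen, was tested in lung alone, with 5.03, 3.29, 0.39 and -0.18 and a ratio of 2.27 ± 0.80 (limma adjusted p = 0.662). Mmp11 (stromelysin-3) and Mmp8 (neutrophil collagenase), also outside the rule for named genes, had 0.20 ± 0.26 in testis and 0.50 ± 0.26 in heart.

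The dye term, which compares arrays with Nur77-/- in Cy5 with those with Nur77-/- in Cy3, could be tested for 30 members. No member passed, against 0.278% of all rows, and 8 had an unadjusted p under 0.05 (26.7%), against 15.2% of all rows. Mmp13 had the smallest p: it was below 0 on 10 of 12 arrays with Nur77-/- in Cy5 (median -0.71) and above 0 on 8 of 10 with Nur77-/- in Cy3 (median 0.30). Its dye term was -0.48 ± 0.12 (limma adjusted p = 0.0900). Col13a1 was above 0 on all 12 Cy3 arrays and on 6 of 12 Cy5 arrays, with a dye term of -0.41 ± 0.11 (limma adjusted p = 0.0900).

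The opposite direction was seen for Col1a2, which was above 0 on all 12 Cy5 arrays and on 7 of 12 Cy3 arrays (dye term 0.19 ± 0.07, limma adjusted p = 0.190). For Timp3, Timp4 and Col6a2 the interval of the dye term included 0. If the Cy3 arrays had been deposited unturned, as Cy5 over Cy3, the ratios of Timp3 would be 0.10 in heart and 0.03 in brown adipose tissue and that of Col5a3 0.77 in skeletal muscle, so the Timp3 values rest on the direction taken here.

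**Figure D5:**
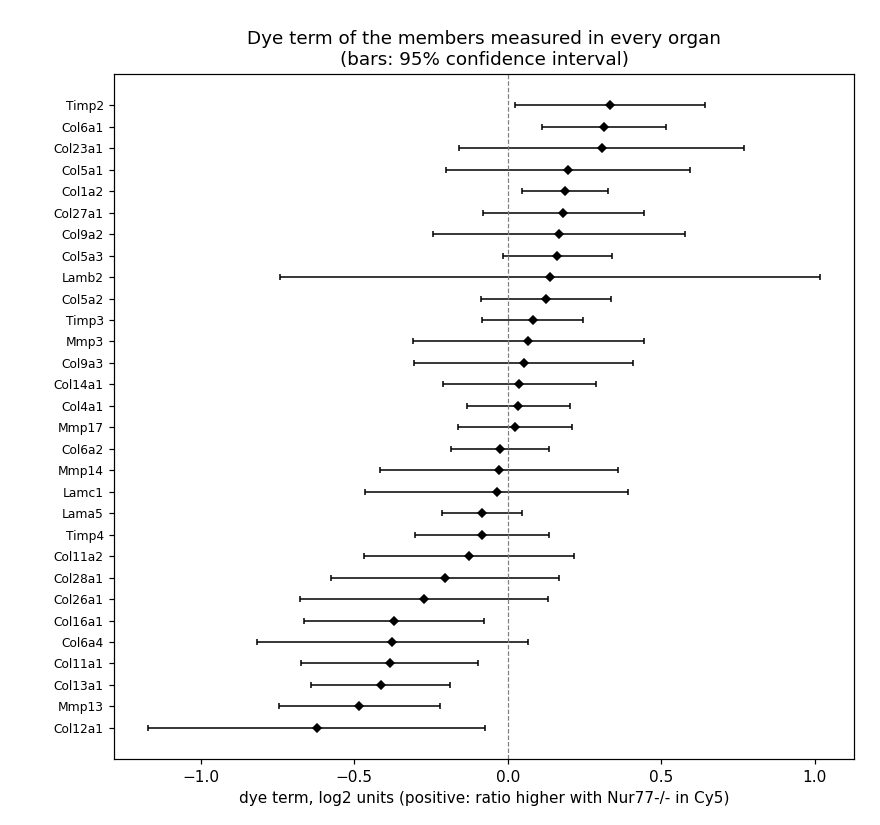
Dye term of the 30 members measured in every organ, in log2 units with 95% confidence intervals; points to the right have higher ratios with Nur77-/- in Cy5. The intervals of 8 members, from Col12a1 and Mmp13 at the bottom to Timp2 at the top, do not include 0, and none passed after adjustment.

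Genes that act with the members were described by lists. Of 26 genes for collagen synthesis and cross-linking, 15 to 17 were tested in each organ and 1 passed: P4ha1, a catalytic subunit of the prolyl hydroxylase that stabilises the triple helix, in brown adipose tissue. P4ha1 had -0.98, -1.03, -0.34 and -0.90 there, all below 0, and fell by 0.81 ± 0.12 on the log2 scale (limma adjusted p = 0.0106). The call held in 7 of 16 alternative fits: it was lost on leaving out any of the 4 replicates (limma adjusted p from 0.147 to 0.656), after centring (0.122) and without array weights (0.99987). With the Cy3 sign turned the ratio was -0.30. The median of that list in brown adipose tissue was -0.15, against -0.07 for all rows. Skeletal muscle genes in the same organ had 11 of 13 ratios above 0 with a median of 0.49, none past the test, and their part in the P4ha1 ratio was not tested.

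In the other lists of matrix and signalling genes no gene passed in any organ. Basement membrane partners of laminin and collagen IV had medians between -0.22 in spleen and 0.38 in testis. Matrix glycoproteins and proteoglycans lay between -0.27 in spleen and skeletal muscle and 0.14 in testis. Matrix receptors had medians between -0.22 in spleen and 0.43 in skeletal muscle, genes of the TGF beta pathway between -0.04 in brown adipose tissue and 0.36 in skeletal muscle, and other matrix proteases and inhibitors between -0.55 in spleen and 0.21 in testis. Fibroblast markers had medians between -0.25 in testis and 0.05 in brown adipose tissue.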

How the data were processed

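Ratios of RNA from Nur77-/- and wild-type pools were measured on 24 two-colour cDNA arrays, 4 for each of 6 organs. Labelling started from 20 µg of RNA, per the labels' protocols. The values are the authors' deposited log2 ratios; no source used here gives the normalization or software. The log base was inferred from a separate mode near 16, and the 4874 of 392774 values with sizes above 12 were treated as missing. Of the members' 1497 probe values, 15 in 9 genes were missing for this reason. The direction rests on Nr4a1 and on tissue genes that kept 1 sign in both dye orientations.

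Probes (20205, of which 13891 had 1 symbol) were averaged per symbol, giving 16148 rows. The Entrez numbers of all 47 members were found in the RefSeq gene table with the same symbol. A row was tested in an organ with values on at least 3 of 4 arrays, and hence in both dye orientations. Ratios were fitted with limma 3.58.1 in R 4.3.3 (lmFit, array weights, eBayes), with 6 organ coefficients and 1 dye term. The fitted ratio therefore weights precise arrays more than a mean does. P-values were adjusted by Benjamini-Hochberg over all rows of a comparison, with a threshold of 0.05. Tests of the dye, between organs (F test) and over organ means used the 7553 rows testable in all organs. Array weights were chosen as the main setting with the results of an earlier analysis known, which had used 1 common spread. The number of arrays limits the precision. The procedure was run on simulated data with independent normal noise, 1 spread per array and no dye effect. The real arrays correlated by dye orientation, so that run does not give the error rates of these data.

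The members and lists were chosen with earlier results of these data known. Named are members past a test, in each organ the 3 highest and 3 lowest ratios with 1 sign on every array, a fixed set of well-known members, members whose probes differ by over 2 log2 units, and up to 4 list genes past the test. Alternatives covered weights, centring, scaling, the dye term, the missing-value limit, probe choice, missing arrays, direction, organs fitted alone, the replicate block and left-out replicates. The protein comparison that had been planned was not made, since no protein sequences were used here.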

Additional observations from a re-analysis of the deposited data

Results flagged for a closer look

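Within the 4 arrays of an organ, an array far from the other 3 was found for 5 of 143 combinations of named member and organ, by Dixon's criterion. Chance flags about 1 in 20. Mmp24 in skeletal muscle had -4.60 on replicate 1, against -0.35 to -0.20 on the other 3 arrays. Timp1 in spleen had -0.20 on replicate 4, against -1.29 to -1.19. Col4a1 in testis had 0.76 on replicate 1, against 0.17 to 0.26. Col11a2 in brown adipose tissue had -0.62 on replicate 4, against -0.08 to -0.05. Col6a2 in brown adipose tissue had 0.21 on replicate 1, against -0.07 to -0.04.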

How the results depend on the processing

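No member passed the test in the fit used for the text, and the count of 0 was kept in lung, testis, heart and brown adipose tissue, for the dye term and over the organ means under every alternative run. Such a 0 says little, since no row at all passed in 6 of 17 alternatives in testis and in brown adipose tissue, 5 of 17 in heart, 1 of 17 in lung, 1 of 13 for the dye term and 16 of 16 over the organ means. The count was 1 where array weights were dropped in spleen (Col16a1, -1.60) and in skeletal muscle (Col5a3, 1.10), and where 1 probe was used in place of the average in skeletal muscle (Timp3, 2.11). In these fits 1.53%, 5.59% and 2.82% of all rows passed, in that order. Between organs the count was 1, Timp3, with arrays centred, with arrays centred and scaled, with 1 probe, and with complete rows. Of all rows 1.97%, 0.463%, 3.74% and 3.58% passed there, in that order. Leaving out each replicate in turn gave a lowest and highest count of 0 in every comparison, where at most 0.0416% of all rows passed in lung, 0.175% in spleen, 0.0393% in testis, 0.766% in skeletal muscle, 0.0147% in heart and 0% in brown adipose tissue.

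With the replicate block (the number 1 to 4 as a term) the count of members was 0 in each organ, between organs and over the organ means. The numbers pair only dyes: arrays of different organs had a median Spearman rho of 0.041 with the same number and 0.040 with another number and the same dye, and 10 of 24 arrays correlated best with their own number. Of 183 fitted ratios of named members, 95 kept their sign under the 16 alternatives that keep the direction. Of the 23 ratios of named members with an unadjusted p under 0.05, 22 kept it. The exception was Col4a1 in skeletal muscle, -0.71 in the text and 0.94 with the values of size above 12 kept. These 23 were picked by their p-value on the same arrays that the alternatives refit, so a kept sign is no separate evidence. In brown adipose tissue 44.4% of members were above 0, and 55.6% after centring. Pools, not animals, were compared, and small ratios in spleen and skeletal muscle were below what these arrays could resolve.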
